A study of Mus musculus with 18 samples.

Results

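The genes described here are 32 members of the unfolded protein response and the integrated stress response, taken by symbol from a list and matched to the 41605 gene identifiers of the deposited count files. All 32 were matched to 1 identifier each, and all 32 passed the filter on low counts, which kept 16836 genes. By role the list holds 14 genes of protein folding in the endoplasmic reticulum (ER), 3 stress sensors, 3 transcription factors, 7 genes of ER-associated degradation and 5 targets of the integrated stress response. Skin of C57BL/6 mice aged 8 to 12 weeks was treated with detergent A, detergent B or phosphate-buffered saline (PBS), with 6 RNA-seq libraries in each group and 18 in all. The labels give no genotype other than the strain, and no dose, duration, sex or body site. They do not say whether each library came from its own animal, so p-values measure the spread between these libraries, which may be technical.

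Secreted and membrane proteins fold in the ER with the help of chaperones, and misfolded chains are passed back to the cytosol for degradation. When folding falls behind, the sensors IRE1 (Ern1), PERK (Eif2ak3) and ATF6 set off the unfolded protein response, in which XBP1 and ATF6 raise the genes of folding and degradation. PERK and other kinases phosphorylate eIF2, which slows translation and favours translation of ATF4, and ATF4 and CHOP (Ddit3) then raise genes of amino acid supply and stress recovery; this shared branch is the integrated stress response. In skin, keratinocytes, sebocytes and fibroblasts make much secreted, membrane or matrix protein, and XBP1 has been studied in keratinocyte differentiation. Much of this signalling acts through splicing of Xbp1 mRNA, cleavage of ATF6 and translation of Atf4, which counts of reads per gene do not show.

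The promoters of many of these genes carry short motifs of the pathway, and those found are shown here so that the values below can be read against them. RefSeq promoter windows (build GRCm38.p6, 250 bases before to 50 after the start) were found for 28 of the 32 genes, and none was matched for Manf, Hyou1, Atf6 and Derl1. The ER stress element ERSE, searched as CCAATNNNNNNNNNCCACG on both strands, was in 9 of the 28 windows and in 0.119% of all 32851 windows (39 windows). Genes and motifs were both chosen for this pathway, so such shares are a description and not a test. The matches follow on the strand of each gene, with the letters searched in capitals, and a match in the other orientation reads CGTGG to ATTGG.
Hspa5: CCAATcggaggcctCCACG
Hsp90b1, farther from the start: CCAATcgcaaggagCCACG
Hsp90b1, nearer the start: CGTGGtgaggcacgATTGG
Pdia6: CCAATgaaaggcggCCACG
Calr: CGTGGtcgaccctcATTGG
Canx: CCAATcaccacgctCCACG
Dnajc3: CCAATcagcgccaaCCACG
Creld2: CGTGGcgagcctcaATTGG
Syvn1: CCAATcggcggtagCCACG
Derl3: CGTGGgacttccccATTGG
Of these 9 genes, 7 belong to protein folding and 2, Syvn1 and Derl3, to ER-associated degradation. The match in Hspa5 begins 65 bases before the start (chr2:34772025-34772043, plus strand) and that in Syvn1 begins 44 bases before it (chr19:6046532-6046550, plus strand).

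A second form, ERSE-II, searched on both strands as ATTGG, any base and CCACG, has the same CCACG and, on the other strand, the same CCAAT as ERSE. It was in 2 of the 28 windows, those of Dnajb11 and Herpud1, and in 0.0365% of all windows (12 windows). The composite site to which ATF4 binds, searched as TGATGNAA on both strands, was in 4 of the 28 windows and in 3.97% of all windows (1304 windows). The core of a further element, the unfolded protein response element, searched as TGACGTGG on both strands, was in 0 of the 28 windows and in 0.676% of all windows (222 windows).
Dnajb11, ERSE-II: ATTGGcCCACG
Herpud1, ERSE-II: ATTGGgCCACG
Herpud1, ATF4 site: TTgCATCA
Trib3, ATF4 site: TTaCATCA
Chac1, ATF4 site: TTgCATCA
Asns, ATF4 site: TGATGaAA
The ATF4 sites of Trib3, Chac1 and Asns place 3 of the 5 integrated stress response targets in this set, and Herpud1 was the only one of the 28 genes with both an ERSE-II and an ATF4 match. The 250 bases before the start are shown for Hspa5, the standard marker of the unfolded protein response (chr2:34771840-34772089, plus strand), for Herpud1, which holds both motifs (chr8:94386179-94386428, plus strand), and for Sdf2l1, the member that passed the test below (chr16:17132384-17132633, minus strand).
Hspa5: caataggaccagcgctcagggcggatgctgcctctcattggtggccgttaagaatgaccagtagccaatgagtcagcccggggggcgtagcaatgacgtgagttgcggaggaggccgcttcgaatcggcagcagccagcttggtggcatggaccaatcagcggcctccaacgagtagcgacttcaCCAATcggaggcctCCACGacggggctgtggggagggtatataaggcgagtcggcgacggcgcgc
Herpud1: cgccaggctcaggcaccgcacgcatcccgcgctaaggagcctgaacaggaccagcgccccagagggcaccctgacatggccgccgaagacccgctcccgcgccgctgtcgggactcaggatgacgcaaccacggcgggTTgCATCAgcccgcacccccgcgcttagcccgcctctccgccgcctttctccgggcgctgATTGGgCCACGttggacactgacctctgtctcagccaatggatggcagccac
Sdf2l1: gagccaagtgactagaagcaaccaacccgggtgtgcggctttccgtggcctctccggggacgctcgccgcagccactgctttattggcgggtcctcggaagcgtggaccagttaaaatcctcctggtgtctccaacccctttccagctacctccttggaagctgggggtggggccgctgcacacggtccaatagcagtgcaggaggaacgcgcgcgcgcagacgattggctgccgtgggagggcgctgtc
None of the motifs searched was matched in full in the window of Sdf2l1, though parts of them such as CCAAT and ATTGG occur in it. The search allowed no mismatch and no other spacing, so near matches were not counted or marked in any window. A match is a description of these letters and not evidence of binding in this tissue.

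Library totals ranged from 17312623 to 29599018 counts. Basal keratinocyte markers (7 genes) summed to between 10810 and 25160 CPM (counts scaled to a common library total) in each library, and suprabasal markers (9 genes) to between 11210 and 44350 CPM, so the libraries carried the keratins of skin. Hair shaft keratins differed most between libraries. A score of 11 of these genes, their mean log2 CPM relative to the PBS mean, ran from -4.96 to 0.48 with detergent A (median -2.33), from -4.48 to -0.39 with detergent B (median -3.16) and from -2.54 to 1.78 with PBS (median 0.20). PBS replicate 6 held the lowest PBS score and stood apart from the other 5, which lay between -0.35 and 1.78. In whole skin, fewer cells of a type and less RNA per cell cannot be told apart.

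All 32 genes had reads in every library, though Derl3 had only 5 to 22. Levels are compared between genes per length, as RPKM, which is CPM divided by the kilobases of annotated exon. Calr, which encodes the lectin chaperone calreticulin, had the highest level, at 191 ± 25.7 RPKM with detergent A, 186 ± 16.1 with detergent B and 186 ± 15.2 with PBS (SD, n = 6 each). Next in PBS came the disulfide isomerase gene Pdia3 at 119 ± 5.59 RPKM, Atf4 at 100 ± 11.3 RPKM, the ER HSP90 gene Hsp90b1 at 90.5 ± 5.80 RPKM and Hspa5, which encodes the ER chaperone BiP, at 88.3 ± 6.79 RPKM. Canx (calnexin) followed at 68.5 ± 2.44 RPKM and Xbp1 at 55.9 ± 2.97 RPKM. In PBS 24 of the 32 genes had a mean of at least 10 RPKM. The sensors were low, with Atf6 at 7.28 ± 0.39, Ern1 at 6.66 ± 0.54 and Eif2ak3 at 4.75 ± 0.32 RPKM in PBS. Trib3, a pseudokinase gene, had 4.63 ± 1.41 RPKM.

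Derl3, which encodes a channel-like protein of ER-associated degradation, was lowest at 0.273 ± 0.117 RPKM with detergent A, 0.264 ± 0.133 with detergent B and 0.288 ± 0.0624 with PBS. It had between 5 and 22 reads in a library, and its 95% intervals reached from -0.76 to 0.62 with detergent A and from -0.84 to 0.55 with detergent B on the log2 scale. Of the 31 pairs of neighbours in the PBS order, 24 had overlapping PBS ranges, so the order is firm only between genes further apart. The coefficient of variation of CPM over the 18 libraries had a median of 11.4% and was under 20% for 28 genes. The lowest was 5.95% for Dnajc3, a co-chaperone that also inhibits PERK. The 4 genes above 20% were Derl3 at 37.3%, Trib3 at 34.8%, Asns at 32% and Chac1 at 23.2%, of which 3 are integrated stress response targets.

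**Figure D1:**
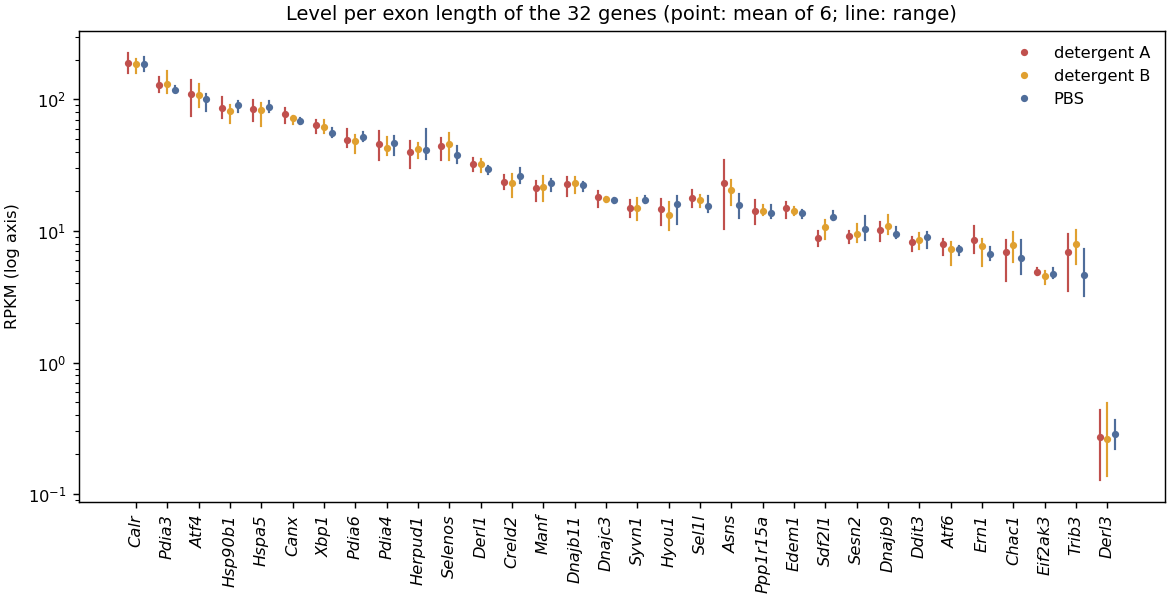
Level of the 32 genes in RPKM on a log axis, ordered by the PBS mean. Points are means of 6 libraries and lines run from the lowest to the highest library, for detergent A, detergent B and PBS from left to right within each gene. The 3 groups lie close together for nearly every gene, from Calr near 186 RPKM to Derl3 under 1 RPKM, with the widest ranges at Asns, Trib3, Chac1 and Derl3.

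Within each group, single libraries were often the highest or the lowest for many ER folding genes at once. Within detergent A, replicate 1 was the highest for 11 of the 14 genes and replicate 6 the lowest for 10 of 14. Within detergent B, replicate 5 was the lowest for 13 of 14, all but the co-chaperone gene Dnajb9, while the highest was spread over replicates 4, 1 and 3 (6, 5 and 3 of 14). Within PBS, replicate 1 was the highest for 9 of 14 and replicate 6 the lowest for 10 of 14. Hspa5 shows the size of this spread, since detergent A replicates 1 and 6 had 421.8 and 289.2 CPM, detergent B replicates 1 and 5 had 395.2 and 264.1 CPM, and PBS replicates 1 and 6 had 412.1 and 339.7 CPM. Of these libraries, PBS replicates 1 and 6 also had the highest and lowest hair shaft scores of their group (1.78 and -2.54). Detergent B replicate 5 had the lowest score of its group (-4.48). Detergent A replicates 1 and 6 had similar scores (-1.04 and -1.10), away from the ends of their group (-4.96 and 0.48). How often these libraries were the extreme of their group over all genes was not counted, so the counts are not shown to be particular to these members. The part of the score in these extremes was not tested. The ER-associated degradation genes had other extremes, and PBS replicate 6 was the highest of its group for 4 of those 7 genes and for 4 of the 5 integrated stress response targets.

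The series compares each detergent with PBS. With detergent A, 1 of the 32 genes passed edgeR's test, the ER folding gene Sdf2l1, which fell, and the other 31 did not. Sdf2l1 (ENSMUSG00000022769) encodes a small ER protein that works with the co-chaperone ERdj3, the product of Dnajb11, and is strongly induced by ER stress in mouse cells. Its lowest, median and highest values were 8.48, 9.77 and 11.2 CPM with detergent A, 9.68, 12.3 and 13.42 CPM with detergent B, and 13.35, 13.97 and 15.68 CPM with PBS. All 6 detergent A libraries lay below all 6 PBS libraries, and the detergent B range reached just into the PBS range. The log2 fold change with detergent A was -0.54 ± 0.10 (SE), 0.689-fold of PBS, with an adjusted p of 0.03919 by edgeR's quasi-likelihood test and Benjamini-Hochberg adjustment over 16836 genes. This gene lies on chromosome 16 from 17130138 to 17132383 on the minus strand (GRCm38).

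Over all genes tested, 0.19% were called with detergent A (32 genes, 0.0535% higher and 0.137% lower), so 1 member of 32 stands beside a low background. DESeq2 called Sdf2l1 alone among the members. limma's voomWithQualityWeights called 9 (Sdf2l1 lower, and Canx, Xbp1, Ern1, Sel1l, Derl1, Selenos, Trib3 and Asns higher), beside 3914 of all genes. At an unadjusted p under 0.05, 6 members were higher and 2 lower, against 10% and 8.71% of all genes (18.8% in all). Detergent A libraries did not overlap PBS for 1 member, Sdf2l1, against 0.956% of all genes on the lower side and 0.404% on the higher side. The median log2 fold change of the 32 members was 0.0373, beside -0.00899 for all genes tested, and 19 members were above 0, against 48.4% of all genes. The call on Sdf2l1 was close to the threshold and held in 7 of the 18 fits that left out 1 library. It was lost without any one of PBS replicates 1 to 5, detergent A replicates 1, 3, 4 and 5, and detergent B replicates 5 and 6, with log2 fold changes of -0.58 to -0.50 over all 18 fits and adjusted p-values of at most 0.133. With the hair shaft score as a covariate the log2 fold change was -0.46 and the adjusted p 0.2104.

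Among the other ER folding genes, Hspa5 had 289.2, 361.8 and 421.8 CPM as its lowest, median and highest values with detergent A, 264.1, 357.0 and 395.2 CPM with detergent B, and 339.7, 369.9 and 412.1 CPM with PBS. The 3 ranges overlapped. Its log2 fold change was -0.05 ± 0.10 with detergent A and -0.09 ± 0.10 with detergent B, with 95% intervals of -0.27 to 0.17 and -0.31 to 0.13. Canx had the largest positive value of the 14 with detergent A, at 364.0 ± 37.7 CPM against 321.5 ± 11.4 CPM with PBS (SD, n = 6 each; log2 fold change 0.18 ± 0.07, adjusted p = 0.1957). The remaining 11 genes of this role had log2 fold changes between -0.16 (Creld2) and 0.12 (Pdia3) with detergent A. With detergent B the 14 genes ran from -0.27 (Hyou1, an exchange factor for BiP, adjusted p = 0.2285) to 0.19 (Dnajb9, a J-domain co-chaperone, adjusted p = 0.2512), with a median of -0.0892. The 95% interval lay within 1.5-fold in either direction for 13 of the 14 genes with detergent A, all but Sdf2l1, and for all 14 with detergent B.

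The 3 sensors did not pass edgeR's test, while voomWithQualityWeights called Ern1 with detergent A (0.40, adjusted p = 0.007867) and with detergent B (0.295, adjusted p = 0.01957). Ern1, which encodes the kinase and RNase IRE1, had 55.1, 68.2 and 88.8 CPM as its lowest, median and highest values with detergent A, 44.2, 66.2 and 71.5 CPM with detergent B, and 49.1, 54.2 and 61.3 CPM with PBS. All 6 detergent A libraries lay above the PBS mean while the ranges overlapped (log2 fold change 0.35 ± 0.12, adjusted p = 0.1435). With detergent B 5 of 6 did, and replicate 4 held the lowest value of all 18 libraries (0.21 ± 0.12, adjusted p = 0.3091). Atf6, the gene of the membrane-bound transcription factor, had 60.9, 74.9 and 80.8 CPM with detergent A, 50.6, 68.3 and 76.6 CPM with detergent B, and 61.1, 68.2 and 71.3 CPM with PBS. Eif2ak3, the PERK gene, had 28.1, 29.2 and 31.4 CPM with detergent A, 23.9, 27.7 and 30.1 CPM with detergent B, and 26.5, 28.4 and 31.4 CPM with PBS. Neither differed beyond the spread between libraries, with Atf6 and Eif2ak3 log2 fold changes of 0.13 and 0.03 for detergent A and -0.003 and -0.06 for detergent B.

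The 3 transcription factor genes did not pass edgeR's test either, while voomWithQualityWeights called Xbp1 with detergent A (0.24, adjusted p = 0.00998). Xbp1 had 181.6, 212.3 and 228.1 CPM as its lowest, median and highest values with detergent A, 179.6, 198.2 and 226.9 CPM with detergent B, and 167.0, 181.2 and 196.8 CPM with PBS. The detergent ranges reached higher but overlapped PBS, with log2 fold changes of 0.19 ± 0.07 for detergent A (adjusted p = 0.1673) and 0.14 ± 0.07 for detergent B (adjusted p = 0.2592). Atf4 had 177.7, 251.9 and 333.9 CPM with detergent A, 205.2, 253.2 and 306.5 CPM with detergent B, and 192.7, 247.2 and 259.5 CPM with PBS. Its medians lay close together, and both detergent groups spread wider than PBS. Ddit3, the CHOP gene, had 11.99, 14.67 and 15.51 CPM with detergent A, 12.43, 14.56 and 16.57 CPM with detergent B, and 12.77, 16.29 and 16.96 CPM with PBS. The ranges overlapped, with log2 fold changes of -0.14 ± 0.10 and -0.07 ± 0.10. Ddit3 overlaps Mars on the opposite strand and a second annotated model of the same name, and its counts are uncertain because the strand setting is not given in the sources used here.

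Of the 7 genes of ER-associated degradation, Selenos, Sel1l and Syvn1 had the largest log2 fold changes in size with detergent A. Selenos, a selenoprotein of the degradation complex, averaged 65.0 ± 9.08 CPM with detergent A, 68.1 ± 10.2 with detergent B and 55.8 ± 6.42 with PBS (SD, n = 6 each), with adjusted p-values of 0.2938 and 0.1350 against PBS. Sel1l, the adaptor of the ubiquitin ligase HRD1, averaged 153.7 ± 14.6, 146.6 ± 12.6 and 133.1 ± 12.7 CPM in the same groups (adjusted p = 0.1828 and 0.3033). Syvn1, which encodes HRD1 itself, averaged 72.3 ± 8.70, 73.2 ± 10.9 and 83.4 ± 4.19 CPM (adjusted p = 0.2478 and 0.2346). Syvn1 and Sel1l, partners in 1 complex, thus had estimates of opposite sign, and neither passed by edgeR. By voomWithQualityWeights Sel1l was called with detergent A (0.279, adjusted p = 0.008288) and with detergent B (0.215, adjusted p = 0.01558). It also called Selenos with detergent A (0.292, adjusted p = 0.03247) and detergent B (0.305, adjusted p = 0.01535), and Derl1 with detergent A (0.185, adjusted p = 0.04883). By edgeR, Edem1, Derl1, Derl3 and Herpud1 lay between -0.14 and 0.14 on the log2 scale in both comparisons and did not pass.

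**Figure D2:**
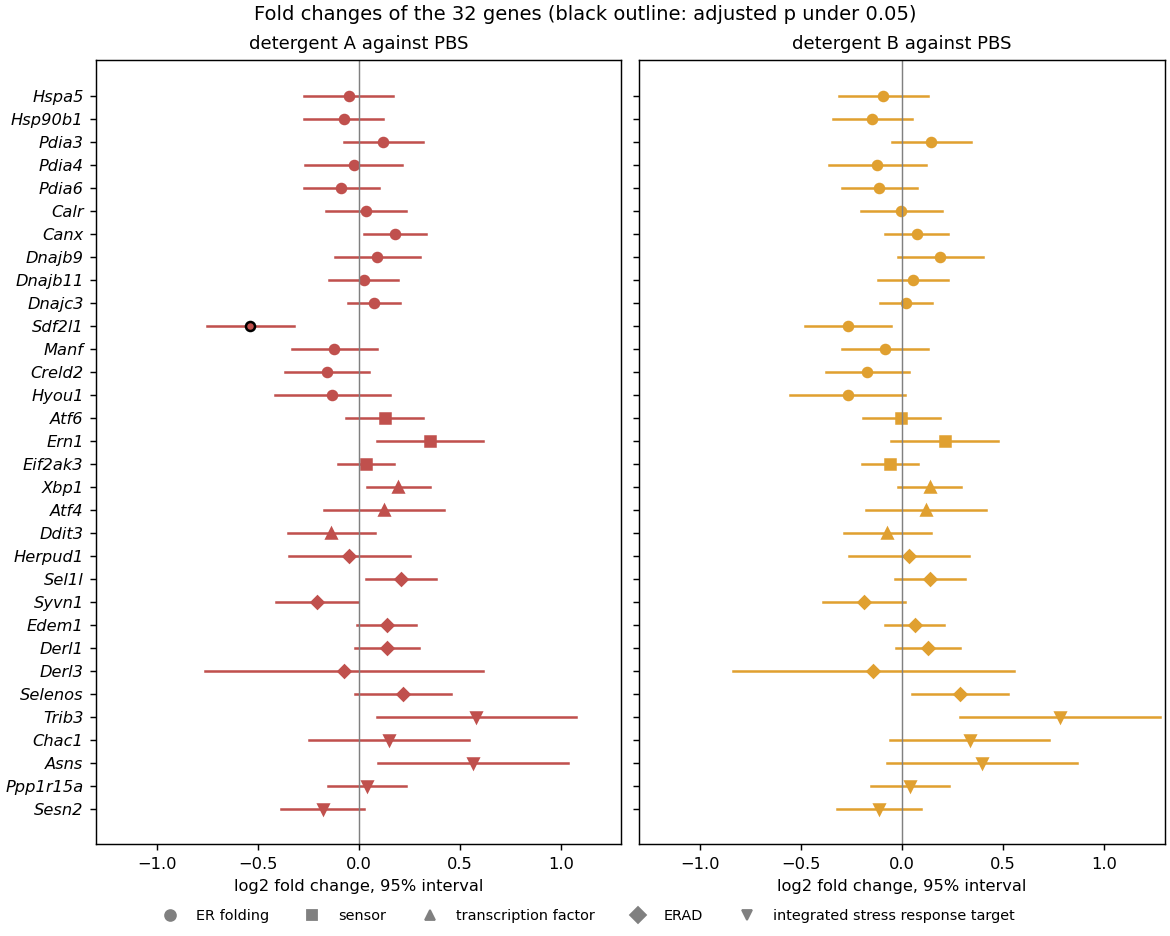
Log2 fold change of the 32 genes with detergent A (left) and detergent B (right) against PBS, with 95% intervals and a marker shape for each role. A black outline marks an adjusted p under 0.05, which only Sdf2l1 with detergent A has (-0.54). The widest intervals are those of Derl3, Trib3, Asns and Chac1.

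With detergent B, 0 of the 32 genes passed the test, against 3.05% of all genes (514 genes, 1.97% higher and 1.08% lower). The count was 1 by DESeq2 (Trib3). It was 7 by voomWithQualityWeights (Sdf2l1, Creld2 and Hyou1 lower, and Ern1, Sel1l, Selenos and Trib3 higher), beside 5074 of all genes. At an unadjusted p under 0.05 edgeR gave 2 higher members and 1 lower, against 12.3% and 11.1% of all genes (23.3% in all). No member was free of overlap with PBS, against 1.72% of all genes on the higher side and 1.12% on the lower. The largest estimates were in the integrated stress response targets. The median log2 fold change over the 32 genes was 0.0267, beside -0.00817 for all genes tested, and over the 5 targets it was 0.335. Of the 32 genes 17 were above 0, against 48.7% of all genes.

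Trib3 (ENSMUSG00000032715), an ATF4 and CHOP target whose product inhibits AKT signalling and ATF4 itself, came nearest. It had 7.39, 15.4 and 20.02 CPM as its lowest, median and highest values with detergent A, 12.0, 16.8 and 21.5 CPM with detergent B, and 6.80, 9.18 and 15.5 CPM with PBS. The PBS maximum was replicate 6, and the other 5 PBS libraries lay at or below 10.2 CPM, under every detergent B library. With detergent B the log2 fold change was 0.78 ± 0.23, 1.72-fold, and 6 of 6 libraries lay above the PBS mean (adjusted p = 0.06791). Trib3 with detergent B passed edgeR's test in 3 of the 18 fits that left out 1 library and not in the other 15. Its adjusted p-values reached 0.155 in these fits. The adjusted p was 0.01637 without PBS replicate 6, 0.03926 without detergent A replicate 2 and 0.04233 without detergent B replicate 3, and 0.02023 by DESeq2. With the hair shaft score as a covariate the estimate was 0.35 (adjusted p = 0.5947). With detergent A the log2 fold change was 0.58 ± 0.23 (5 of 6 libraries above the PBS mean, adjusted p = 0.1903).

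Asns, which encodes asparagine synthetase, had 28.1, 68.0 and 94.5 CPM as its lowest, median and highest values with detergent A, 43.2, 56.8 and 66.8 CPM with detergent B, and 34.3, 43.0 and 52.6 CPM with PBS. Detergent A held both the highest and the lowest library of all 18, and the low one was replicate 6. Its log2 fold change was 0.57 ± 0.22 with detergent A (5 of 6 above the PBS mean, adjusted p = 0.1813) and 0.40 ± 0.22 with detergent B (6 of 6, adjusted p = 0.2815). Without detergent A replicate 6 the detergent A value was 0.72 (adjusted p = 0.03113 by edgeR). The other 17 fits that left out 1 library did not pass. Over all 18 fits the values ran from 0.416 to 0.718, with adjusted p-values up to 0.4322. Chac1, a glutathione-degrading enzyme gene, had 6.84, 12.1 and 14.1 CPM with detergent A, 9.45, 12.9 and 15.9 CPM with detergent B, and 7.73, 9.56 and 13.9 CPM with PBS. The 3 ranges overlapped, and the log2 fold changes were 0.15 ± 0.19 and 0.33 ± 0.19 (adjusted p = 0.7011 and 0.2813).

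Ppp1r15a, which encodes the eIF2 phosphatase subunit GADD34 that ends the response, averaged 41.6 ± 6.03 CPM with detergent A, 41.6 ± 3.17 with detergent B and 40.5 ± 3.45 with PBS (SD, n = 6 each). Sesn2, which encodes the leucine sensor sestrin 2, averaged 31.8 ± 2.64, 33.2 ± 3.62 and 36.0 ± 5.401 CPM in the same groups, and its estimates were below 0 (-0.18 ± 0.10 and -0.11 ± 0.10). The estimates of the 5 targets thus did not share a sign.

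**Figure D3:**
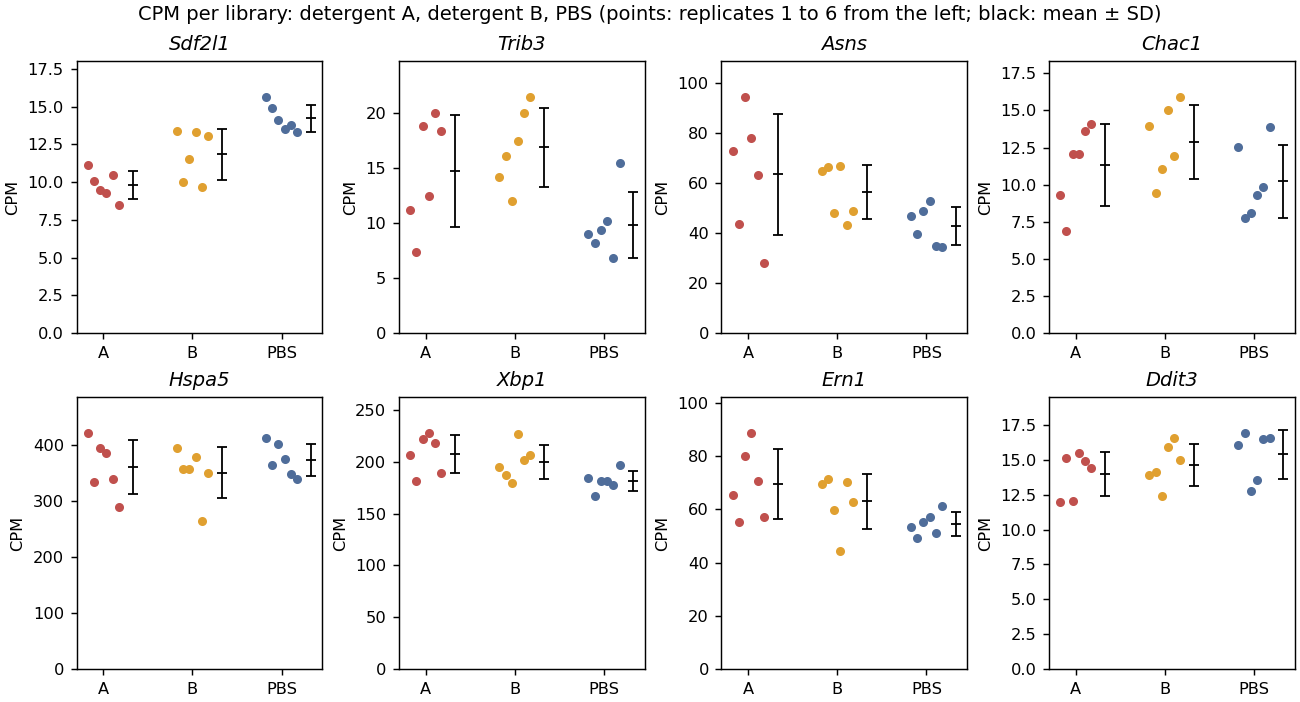
CPM of 8 genes in each library, for detergent A, detergent B and PBS from left to right, with replicates 1 to 6 in order as points and the mean ± SD in black. Sdf2l1 is below every PBS library in all 6 detergent A libraries, Trib3 and Asns spread widely with detergent A, and the highest PBS value of Trib3 (15.5 CPM) is replicate 6.

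Between the detergents, 0 of the 32 genes passed the test with detergent B against detergent A, and 0% of all genes were called by edgeR. DESeq2 and voomWithQualityWeights called 0 members too. At an unadjusted p under 0.05 edgeR gave 1 higher member and 0 lower, against 1.79% and 1.48% of all genes (3.27% in all). No member was free of overlap, against 0.0297% of all genes on each side, and 13 members were above 0, against 49.9% of all genes. The 1 member was Sdf2l1, higher with detergent B at 11.8 ± 1.69 CPM than with detergent A at 9.82 ± 0.95 CPM (SD, n = 6 each; log2 difference 0.27 ± 0.10, 95% interval 0.06 to 0.49, adjusted p = 0.9887). The fall of Sdf2l1 passed the test with detergent A and not with detergent B (-0.27 ± 0.10, adjusted p = 0.1247), but this direct comparison did not pass after adjustment. Intervals for detergent B against detergent A lay within 1.5-fold for 29 of the 32 genes and within 2-fold for all 32. The 3 wider ones were Derl3 (-0.77 to 0.63), Trib3 (-0.29 to 0.69) and Asns (-0.64 to 0.30). Against PBS, 27 intervals lay within 1.5-fold and 30 within 2-fold with detergent A, and 28 and 31 with detergent B.

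Related genes outside the 32 were counted in 8 lists. Over all genes edgeR called 0.19% with detergent A and 3.05% with detergent B (1.97% higher and 1.08% lower). Among 20 other ER folding and oxidation genes, 0 were called with detergent A and 1 with detergent B. This was Sdf2, the paralog of Sdf2l1, which rose and averaged 89.0 ± 10.9 CPM with detergent B, against 71.8 ± 6.31 CPM with PBS (SD, n = 6 each; log2 fold change 0.31 ± 0.08, adjusted p = 0.04846). With detergent A it averaged 83.8 ± 6.19 CPM (0.22 ± 0.08, adjusted p = 0.1618). Sdf2 and Sdf2l1 thus had estimates of opposite sign in both comparisons. The list medians were -0.0836 with detergent A and 0.000253 with detergent B. At an unadjusted p under 0.05 by edgeR, this list held 1 higher and 2 lower genes with detergent A. With detergent B it held 3 higher and 1 lower.

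No gene was called by edgeR among 19 other degradation genes, 20 translocon and signal peptide genes, 12 aminoacyl-tRNA synthetase genes or 15 cytosolic heat shock genes, in either detergent. At an unadjusted p under 0.05 with detergent A these lists held 5, 3, 3 and 2 higher genes and 0, 0, 0 and 1 lower ones, and with detergent B 3, 6, 3 and 0 higher and 1, 0, 0 and 2 lower. The shares over all genes were 10% higher and 8.71% lower with detergent A, and 12.3% and 11.1% with detergent B. The synthetases, which charge tRNAs and are ATF4 targets, had a median log2 fold change of 0.175 with detergent A and 0.0389 with detergent B, and 11 and 8 of the 12 were above 0. The heat shock genes, which serve folding in the cytosol, had medians of -0.0143 and -0.0151.

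Among 19 other sensors, kinases and eIF2 genes, edgeR's unadjusted p was under 0.05 for 3 higher and 3 lower ones with detergent A. With detergent B it was so for 2 higher and 4 lower ones. After adjustment 1 fell with detergent A, against 0.137% of all genes called lower. This was Creb3l1, an ER-anchored transcription factor known for its part in collagen secretion, at 20.4 ± 3.91 CPM against 31.0 ± 4.42 CPM with PBS (SD, n = 6 each; log2 fold change -0.60 ± 0.12, adjusted p = 0.04071). All 6 detergent A libraries lay at or below 26.6 CPM, under the PBS minimum of 27.1 CPM. Fibroblast markers (7 genes) ran beside it, with sums of 3379 to 8468 CPM (median 4552) with detergent A and 5608 to 9938 CPM (median 7357) with PBS, 7 of 7 below 0 and 0 called, and their part in the result was not tested. With detergent B Creb3l1 had 24.7 ± 2.03 CPM (-0.33 ± 0.12, adjusted p = 0.1098). There 4 of the 7 fibroblast markers were above 0 and 3 below, with sums of 4781 to 8676 CPM (median 6184).

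Among 22 other ATF4 and CHOP targets, Ddit4 fell in both comparisons and no other gene was called. Over all genes 0.137% were called lower with detergent A and 1.08% with detergent B. Ddit4 encodes REDD1, an inhibitor of the growth kinase complex mTORC1. It had 35.6, 41.7 and 46.3 CPM as its lowest, median and highest values with detergent A, 39.9, 43.6 and 55.8 CPM with detergent B, and 52.0, 61.0 and 76.0 CPM with PBS. The detergent A range lay wholly below PBS (log2 fold change -0.62 ± 0.10, adjusted p = 0.03919), and the detergent B range overlapped its lower end (-0.46 ± 0.10, adjusted p = 0.02977). Both comparisons share the PBS libraries. The list medians were -0.0238 and -0.0656. At an unadjusted p under 0.05 by edgeR, the list held 3 higher and 1 lower genes with detergent A, and 2 and 3 with detergent B. Among 10 mitochondrial folding genes, Clpx, which encodes an unfoldase of the matrix protease, rose with detergent B. It averaged 88.2 ± 6.54 CPM, against 68.5 ± 7.56 CPM with PBS (0.37 ± 0.09, adjusted p = 0.04407). Over all genes 1.97% were called higher with detergent B. The list medians were 0.164 and 0.0917, and 10 and 9 of the 10 genes were above 0. At an unadjusted p under 0.05 by edgeR, 4 were higher with detergent A and 3 with detergent B, and 0 were lower in either. The 5 calls on Sdf2, Creb3l1, Ddit4 and Clpx had adjusted p-values of 0.02977 to 0.04846 by edgeR. Each was lost when some single libraries were left out, and none held with the hair shaft score as a covariate or with the GC correction. With the GC correction the log2 fold change of Creb3l1 was -0.356 (adjusted p = 0.1784).

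Across libraries the 32 genes were also set against the hair shaft score within groups, in a model with group and score. The slope is the log2 change of a gene per log2 unit of the score. Of the 32 genes 10 passed the test, 2 higher and 8 lower with a higher score, against 13.4% and 11.8% of all genes (2257 and 1982 genes), so the share of members on the lower side was above the background and that on the higher side below it. No test was made of this difference in shares. Slopes were below 0 for 7 of 7 genes of ER-associated degradation and 5 of 5 integrated stress response targets, of which 4 and 2 passed, and for 5 of 14 ER folding genes. Over all genes 8809 of 16836 were below 0. The median slope was -0.0161 for the members and -0.00384 for all genes.

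The gene with the lowest adjusted p was Herpud1, which encodes a membrane protein that gathers the degradation complex and whose window holds both an ERSE-II and an ATF4 match (slope -0.11 ± 0.02, adjusted p = 0.001109 by edgeR). Its lowest, median and highest values were 69.8, 96.6 and 113.6 CPM with detergent A, 84.1, 99.5 and 109.5 CPM with detergent B, and 82.4, 88.9 and 139.6 CPM with PBS. The highest was PBS replicate 6, the PBS library with the lowest score, and the lowest was detergent A replicate 2, whose score of 0.48 was the highest of its group. Trib3 had the steepest slope (-0.17 ± 0.04, adjusted p = 0.008647), with 20.02 CPM in detergent A replicate 5 at a score of -4.96 and 7.39 CPM in detergent A replicate 2. Other libraries of this group departed from that order, with 12.47 CPM in replicate 4 at -4.61 and 18.36 CPM in replicate 6 at -1.10. Sel1l, Selenos, Xbp1, Dnajb9, Derl1 and Ppp1r15a also passed, with slopes between -0.072 and -0.044 and adjusted p-values between 0.01245 and 0.04395. In the other direction were the disulfide isomerase gene Pdia4 (0.08 ± 0.02, adjusted p = 0.00571) and Hsp90b1 (0.06 ± 0.02, adjusted p = 0.02800). Hspa5 had a slope of 0.02 ± 0.03 (adjusted p = 0.5945).

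Leaving out 1 library gave between 4 and 11 members passing. The count was 4 without PBS replicate 6, detergent A replicate 2 or detergent B replicate 3, it was 5 without detergent A replicate 4, and it was 6 without PBS replicate 2, detergent A replicate 3 or detergent A replicate 5. The call held in 4 of the 18 fits for Ppp1r15a, in 10 for Dnajb9 and Derl1, in 11 for Xbp1, in 13 for Hsp90b1, in 15 for Selenos and in 16 for Sel1l. Herpud1, Trib3 and Pdia4 passed in each of these 18 fits, with slopes of -0.124 to -0.0898, -0.195 to -0.133 and 0.0725 to 0.0948.

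**Figure D4:**
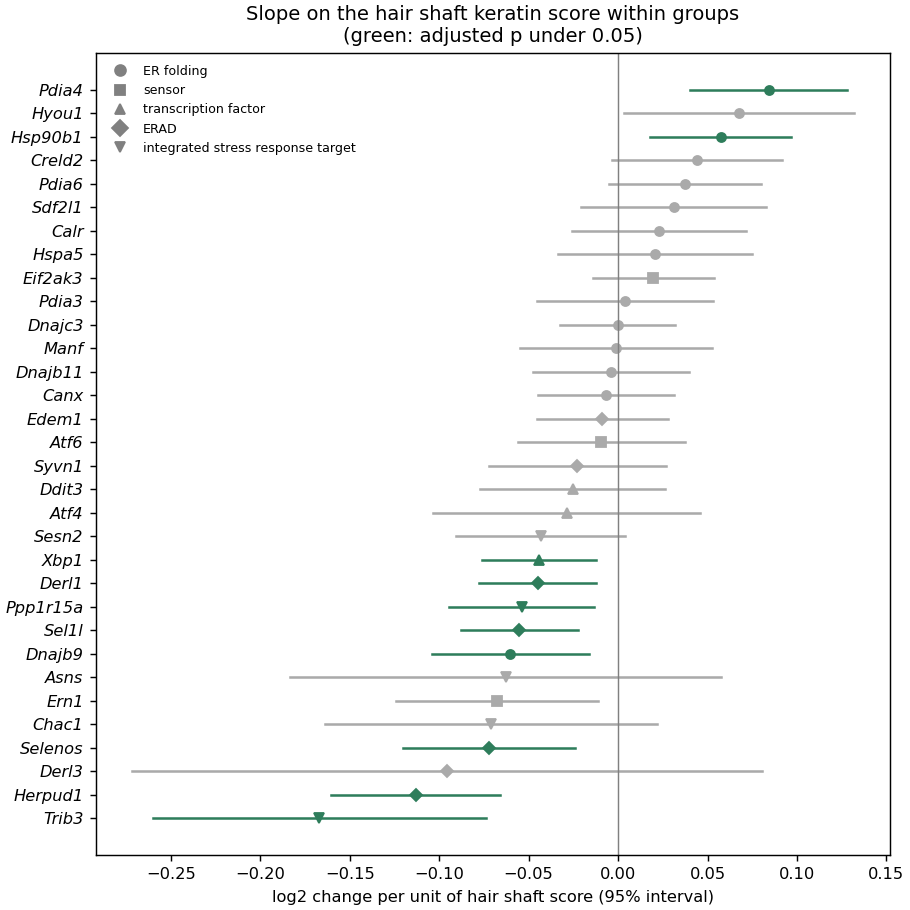
Slope of each of the 32 genes on the hair shaft keratin score in a model with group, in log2 units per log2 unit of the score, with 95% intervals. Green marks an adjusted p under 0.05 and shapes mark the role. The 8 genes at the top, up to 0.08 (Pdia4), are ER folding genes, and the slopes of all 7 degradation genes and all 5 integrated stress response targets lie below 0, down to -0.17 (Trib3).

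**Figure D5:**
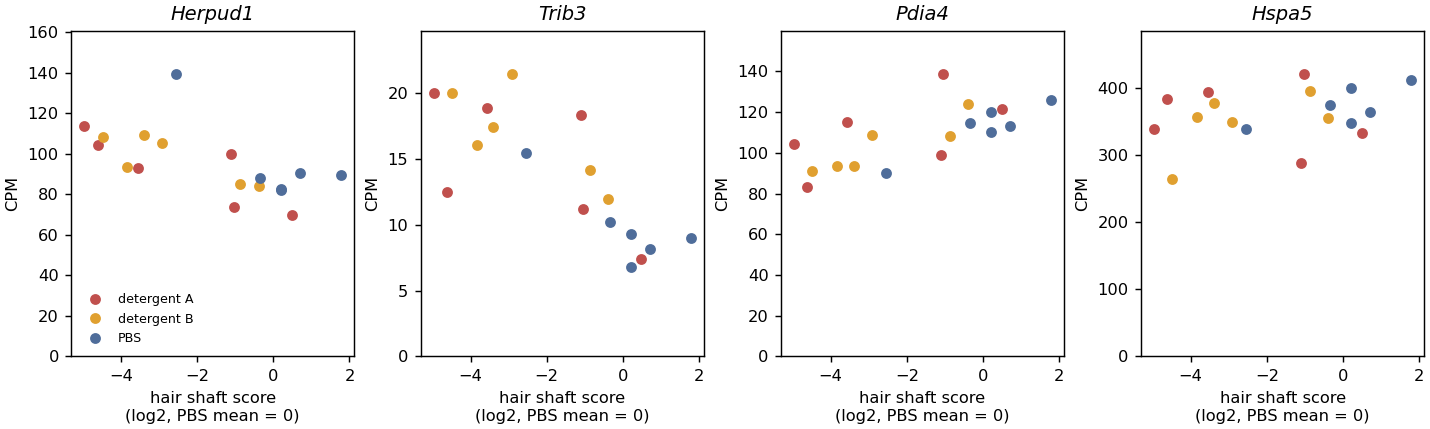
CPM of 4 genes against the hair shaft keratin score, with 1 point per library for detergent A, detergent B and PBS. Herpud1 and Trib3 are higher in libraries with a low score, Pdia4 is higher at high scores, and Hspa5 has a slope of 0.02 ± 0.03. The PBS point near a score of -2.5 is replicate 6.

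Markers of other cells that make much ER protein were read beside these values. Of 10 plasma and B cell markers 3 passed the filter. Sdc1, which keratinocytes also express, averaged 730 CPM with detergent A, 653 with detergent B and 637 with PBS and made up most of the list's sum of 505.2 to 908.8 CPM with detergent A, 595.0 to 818.2 CPM with detergent B and 602.2 to 729.4 CPM with PBS. No gene of this list was called. Sebaceous gland markers (8 genes) summed to 3440 to 6681 CPM with detergent A, 4569 to 6957 CPM with detergent B and 3340 to 5396 CPM with PBS, with 0 called. Suprabasal keratinocyte markers had 4 of 9 genes called higher with detergent B, against 1.97% of all genes, with sums of 25140 to 44350 CPM against 11210 to 26450 CPM with PBS, and 0 called with detergent A (17110 to 40850 CPM). The part of these cells in the values of the 32 genes was not tested.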

How the data were processed

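RNA of mouse skin was sequenced with standard Illumina libraries, per the labels' protocols. The authors deposited whole-number counts of reads per gene, 1 file per library. STAR, featureCounts and GRCm38.p5 are named in the submitters' processing notes, while for versions, annotation, strand setting and multi-mapped reads these sources state nothing. Genes that overlap others, among them Ddit3, Hsp90b1, Manf, Syvn1, Pdia3, Pdia6 and Ppp1r15a, and Calr, which has an annotated pseudogene, are therefore uncertain. Hsp90b1 overlaps Gm15344 and Gm25745 on its own strand.

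Of 41605 identifiers, 41519 were matched to GENCODE M21 for symbols and exon lengths, and 86 were not. Tests used edgeR 4.0.16 in R 4.3.3: filterByExpr (at least 99.89% of each library's counts kept), TMM, and a robust quasi-likelihood fit of group on all 18 libraries (15 residual degrees of freedom). Benjamini-Hochberg adjustment ran over the 16836 tested genes, with a threshold of 0.05. A standard error is the log2 fold change divided by the square root of F, and 95% intervals use it. CPM used TMM-scaled totals. The hair shaft score is the mean log2 CPM (prior count 2) of 11 of 12 listed keratins. The edgeR fit was also run on simulated counts, drawn independently without shared hair shaft or GC differences between libraries. Such counts cannot show how the calls stand against those differences. Promoter windows came from RefSeq (GRCm38.p6, the same chromosome sequence as the files' build); no protein sequence was used here.

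Every member but Derl3 had at least 147 reads in each library. No pair of libraries of a group agreed within sampling noise (chi-square per gene at least 9.38). Members, lists and tests were chosen with earlier results of these data known. Lowest, median and highest values are given for members past the threshold, the 3 largest changes per comparison and Hspa5, Xbp1, Atf4, Ddit3, Atf6, Ern1 and Eif2ak3; other members were named after their values were seen. Alternatives were DESeq2 1.42.0, limma 3.58.1 voomWithQualityWeights, RLE size factors, no filter, 12 libraries, a replicate block, the hair score, GC content in 20 bins, a non-robust fit and each library left out. For the 4 related-list genes that passed, these were added after seeing the data.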

Additional observations from a re-analysis of the deposited data

Results flagged for a closer look

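Of 96 sets of 6 libraries (32 genes in 3 groups), 3 had 1 library far from the other 5 by Dixon's gap test at its 95% level, where chance alone flags about 1 in 20. In detergent B, replicate 5 was low for Hspa5, at 264.1 CPM against 349.0 to 395.2 CPM in the other 5, and for Canx, at 302.7 CPM against 338.7 to 354.1 CPM. In PBS, replicate 6 was high for Herpud1, at 139.6 CPM against 82.4 to 90.6 CPM, and this library also had the lowest PBS hair shaft score (-2.54). Without it, the slope of Herpud1 on the score still passed.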

How the results depend on the processing

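Of the 32 genes with detergent A, 1 was called by edgeR as reported and 1 by DESeq2, with RLE size factors, on 12 libraries and in a non-robust fit. The count was 0 with no filter, the replicate block, the hair score or the GC correction, 9 by voomWithQualityWeights, and 0 to 2 with 1 library left out (2 without detergent A replicate 6, Sdf2l1 and Asns). Sdf2l1 had adjusted p-values of 0.06663, 0.09259, 0.2104 and 0.1196 in those 4 fits. With detergent B the count of 0 became 1 (Trib3) by DESeq2, on 12 libraries and with the GC correction, 7 by voomWithQualityWeights, and 0 to 2 with 1 library left out (2 without detergent B replicate 3, Trib3 and Selenos). Over all genes, the 32 calls with detergent A became 819 by DESeq2, 3914 by voomWithQualityWeights, 0 with the block, the hair score or the GC correction, and 0 to 888 with 1 library left out. The 514 with detergent B became 1436 by DESeq2, 5074 by voomWithQualityWeights, 251 with no filter, 274 with the GC correction, 0 with the hair score, and 28 to 1888 with 1 library left out, the most in both without PBS replicate 6. Detergent B against detergent A gave 0 in every fit. Members that passed on the hair score numbered 10, and 4 to 11 with 1 library left out. The causes were not tested. With the hair score the sign turned for 8 of the 32 genes with detergent A, among them Hspa5 (0.00309), Chac1 (-0.0389) and Pdia4 (0.181), and for 6 with detergent B, among them Herpud1 (-0.256) and Pdia4 (0.10), and 0 passed. In other fits signs turned for further members, of which some are given here. By voomWithQualityWeights these were Atf6 with detergent B (0.0431) and Herpud1 with detergent A (0.0853). With the GC correction they were Sesn2 (0.0126) and Dnajc3 (-0.0327) with detergent B, and with the block Atf4 between detergents (0.00966). With 1 library left out, Hspa5 with detergent A ran from -0.101 to 0.00529, Atf6 with detergent B from -0.044 to 0.075, and between detergents Hspa5 from -0.0976 to 0.0276 and Atf4 from -0.0919 to 0.0832.

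Creb3l1 with detergent A lost its call without any one of PBS replicates 1 to 5, detergent A replicates 1, 3, 4 and 5 or detergent B replicates 1, 5 and 6. Ddit4 lost it with detergent A without PBS replicates 1 to 3, detergent A replicates 1, 3, 4 and 5 or detergent B replicates 5 and 6, and with detergent B without PBS replicates 1 to 3 or detergent B replicates 4 to 6. Sdf2 and Clpx with detergent B lost it without PBS replicates 1 to 5, detergent A replicates 1, 4 and 5 or detergent B replicates 2, 4, 5 and 6. Adjusted p-values in these fits reached 0.133. With the GC correction they were 0.1784 for Creb3l1, 0.1196 and 0.1201 for Ddit4 with detergents A and B, 0.07019 for Sdf2 and 0.07557 for Clpx. With no filter Creb3l1 (0.05252), Sdf2 (0.07679) and Clpx (0.06236) lost their calls, and on 12 libraries Creb3l1 (0.08906) and Sdf2 (0.06047) did.

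Libraries share replicate numbers across groups. Correlations of same-numbered libraries ran from -0.349 to 0.546, 8 of 18 above 0.1. In 4 of 18 comparisons of a library with the 6 of another group, the best correlation was with its own number. These values cannot decide whether the numbers pair the libraries, which also differ in hair shaft score. With the replicate block, calls moved from 32 to 0 over all genes with detergent A and from 514 to 377 with detergent B, and the calls on Creb3l1 (adjusted p = 0.1007), Ddit4 with detergent A (0.09259), Sdf2 (0.05402) and Clpx (0.0567) were lost. On the hair score 9 members passed with the block, and 4 of the 10 reported ones were lost, Pdia4 (slope 0.0646, adjusted p = 0.09159) and Hsp90b1 (0.0435, 0.2429), both higher with the score, and Xbp1 (0.08052) and Derl1 (0.1286).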
